A study of Homo sapiens with 5 samples.

Results

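Messenger levels of 8 genes for iron storage, uptake, export and sensing were compared between cells sorted from the human glioblastoma line U87 MG, labelled CD133 positive, and control cells of the same line. The genes were FTH1, FTL, TFRC, SLC40A1, SLC11A2, ACO1, IREB2 and STEAP3, taken by symbol from a deposited table of 46427 genes. Controls were 2 libraries with no treatment, numbered 2 and 3 in titles that begin with u87_control. The sorted group held 3 libraries, numbered 1, 2 and 3, whose titles begin with f2n11_csc and whose labels name the cells cancer stem cells, CD133 positive. All 5 libraries came from 1 established line. None of them is from CD133-negative or mock-sorted cells, so the sort and the marker cannot be told apart. Whether replicates came from separate cultures is not stated in the labels, and p-values therefore cover the spread between these libraries alone, which may be technical.

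Cells take up iron as transferrin through the transferrin receptor, reduce it in the endosome, move it into the cytosol, and store what is not used inside ferritin, a shell built of heavy and light chains. Both iron regulatory proteins, the products of ACO1 and IREB2, read the cytosolic iron level. When iron is scarce they bind hairpins called iron-responsive elements, which blocks translation of ferritin and ferroportin messengers and protects the transferrin receptor messenger from decay. Glioma cells with stem-like properties have been described as avid users of iron. Translation, protein and iron itself were not measured here.

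The hairpins are shown because they tie the storage, export and uptake messengers to the same sensors. A search of the sense strand of the longest protein-coding GENCODE 29 transcript of each gene looked for a C, 5 bases, the loop CAGTGN with a last base other than G, and 5 bases able to pair with the first 5, G-U pairs allowed. Such a match was found in 189 of 19669 genes, or 0.96%. The capitals mark the loop. In these 30-base stretches (GRCh38) the FTL and SLC40A1 matches lay in the 5′ UTR, in exon 1, and the 4 TFRC matches and that of the phosphatase gene CDC14A in the 3′ UTR, in exon 19 and exon 16:
FTL, chr19:48965335-48965364, plus strand: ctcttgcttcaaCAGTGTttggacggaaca
SLC40A1, chr2:189580660-189580689, minus strand: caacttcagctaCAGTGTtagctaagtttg
TFRC match 1, chr3:196050978-196051007, minus strand: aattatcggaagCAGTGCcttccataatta
TFRC match 2, chr3:196050574-196050603, minus strand: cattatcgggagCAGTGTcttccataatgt
TFRC match 3, chr3:196050509-196050538, minus strand: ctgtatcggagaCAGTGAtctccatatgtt
TFRC match 4, chr3:196050462-196050491, minus strand: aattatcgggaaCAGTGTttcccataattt
CDC14A, chr1:100518583-100518612, plus strand: tatttacatgtaCAGTGTtacattatatat

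All 4 TFRC stretches hold the letters tatcgg before the loop, while FTL and SLC40A1 share the loop CAGTGT and not those letters. Matches are given for members other than FTH1, whose sequence is not shown here, and nothing about FTH1 follows from that. A match is a description of letters, and a transcript without one, such as that of SLC11A2, was only shown not to hold these letters.

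Controls 2 and 3 held 29137978 and 29841238 gene counts. Depth in sorted libraries 1, 2 and 3 was lower, at 17716823, 27335199 and 18985803. Sorted library 3 was unlike the others: the 7SL RNA genes took 24.4% of its counts and protein-coding genes 60.9%. In the other libraries these shares were 5.71 to 12.01% and 72.6 to 82.5%, and the widest 95% Wilson interval of any share spanned 0.0439 percentage points, counting error only. PROM1, which encodes CD133, had 12 and 0 counts in controls, and 7, 0 and 0 after sorting. The messenger of the sort antigen therefore did not set the sorted libraries apart, and the label was not borne out at the RNA level; CD133 protein was not measured here. Of 10 astrocyte and glioma markers, PROM1 among them, 5 were tested. GFAP and S100B had at most 12 counts in any library, and AQP4 and ALDH1L1 had 0 in all 5. SLC1A3 and VIM were expressed in all, and NES rose (log2 fold change 1.72, adjusted p = 0.0253 by edgeR). SOX2 and OLIG2, also on this list, were not called by edgeR. For this list edgeR called 1 higher and 0 lower, when 2.2% and 2.4% of all tested genes were. DESeq2 called 2 higher and 0 lower (8.76% and 8.16%). Of 10 macrophage markers, which matter here because macrophages recycle iron, AIF1, TYROBP and CX3CR1 had 0 counts in all libraries, and CD163 and PTPRC had at most 8. ITGAM had 0 counts in both controls and 8, 18 and 13 after sorting (adjusted p = 0.0756 by edgeR and 0.00338 by DESeq2), and CSF1R had 219 and 113 against 119, 213 and 0. CD14 and LYZ, also on this list, were not called by edgeR. Of the 4 tested macrophage markers edgeR called 1 higher and 0 lower. This was CD68, a lysosomal gene (log2 fold change 1.11, adjusted p = 0.0479), which made up nearly all of the list's sum. That sum, in counts per library total (CPM) corrected by the factors of the trimmed mean of M values (TMM), was 147 and 104 in the controls, against 273, 282 and 244 in sorted libraries 1, 2 and 3. Per library total alone it was 170.4 and 127 against 277, 282 and 169.9, so that sorted library 3 lay just below control 2.

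Some markers of further cell types also differed. Of 7 fibroblast and pericyte markers, all tested, COL1A2 and ACTA2 rose and LUM fell by edgeR, and the list summed to 214 and 247 CPM in controls and 622, 650.1 and 465 CPM after sorting. Of 6 tested endothelial markers 1 fell, TEK, with 4.57 and 4.19 CPM against 0.557, 0.147 and 0.303, and the sum was 16.0 and 16.7 CPM against 10.8, 8.21 and 8.55. Neuron and oligodendrocyte markers summed to 47.8 and 45.6 CPM against 112, 102 and 50.6. Per library total alone this sum was 55.2 and 55.8 against 113, 102 and 35.2, with sorted library 3 below both controls. On that scale the fibroblast and pericyte sum was 247 and 303 against 630, 649 and 324. The endothelial one was 18.5 and 20.4 against 10.9, 8.19 and 5.95. Of the 4 tested neuron and oligodendrocyte markers edgeR called 0. At an unadjusted p under 0.05 and by DESeq2, 1 was higher and 1 lower, and by limma-voom 1 was lower. Of these markers RBFOX3, MOG, MAG and CLDN5 had 0 counts in all libraries, as had all 7 erythroid markers. Over all tested genes, 2.2% were called higher and 2.4% lower by edgeR, and 8.76% and 8.16% by DESeq2. Limma-voom called 3.78% and 5.35%, and 12.2% and 13.6% passed at an unadjusted p under 0.05. The part of these marker differences in the iron results was not tested.

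Of the 8 iron genes, 7 passed the filter on low counts, and SLC40A1 did not. With all 5 libraries, 0 of the 7 rose and 0 fell by edgeR's quasi-likelihood test at a Benjamini-Hochberg adjusted p under 0.05, where 2.2% of 16304 tested genes rose and 2.4% fell. FTH1 and TFRC came closest, each with every sorted library below both controls in CPM, a pattern shared by 27.7% of all tested genes. At an unadjusted p under 0.05, 0 were higher and 2 lower, against 12.2% and 13.6% of all tested genes. DESeq2 called both as lower and 0 as higher (8.16% and 8.76% of all genes), and limma-voom called FTH1 alone as lower and 0 as higher (5.35% and 3.78%). Without sorted library 3, edgeR called FTH1 and TFRC as lower and 0 as higher, when 16.8% of 16038 tested genes were lower and 15.4% higher. FTH1 also passed as lower with library size as the only scaling (1.93% of all genes lower), with no low-count filter (2.4%), on log2(TPM + 1) (9.25%), on log2(TPM + 0.1) (2.72%) and on log2(FPKM + 1) (6.51%). FTH1 and TFRC both passed with protein-coding genes alone and sorted library 3 left out (20.2%). The 7 log2 fold changes had a median of -0.06, against 0.00 over all tested genes.

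FTH1 encodes the ferritin heavy chain, which oxidises iron as it enters the shell (gene 2495, chromosome 11, 61964285 to 61967634, GRCh38.p14). Its level was 763 and 736 CPM in controls 2 and 3, scaled by TMM, and 361, 340.5 and 454 CPM in sorted libraries 1, 2 and 3. All 3 sorted libraries were low and the groups did not overlap. The same was so, in this direction, for 27.7% of all tested genes, and 22.7% had every sorted library above both controls. The means were 749.5 ± 19.4 (SD, n = 2) and 385 ± 60.4 CPM (SD, n = 3), 1.95-fold lower in sorted cells. The log2 fold change was -0.96 ± 0.22 (SE), and the adjusted p of 0.0611 by edgeR missed the threshold. Leaving out sorted library 3 gave -1.10 ± 0.08 (SE, adjusted p = 1.31e-04), and DESeq2 and limma-voom gave adjusted p of 9.51e-04 and 0.0366 with all libraries. FTH1 has many processed copies. The 20 FTH1 pseudogenes in the table together held 0.800 to 1.68% as many counts as the gene, fewest in sorted library 3, and adding them left the log2 fold change at -0.97. The 3′ end of FTH1 also overlaps BEST1, which had 239 and 296 counts in controls against 96, 108 and 59 in the sorted group, and reads there cannot be told apart without strand.

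FTL encodes the ferritin light chain, which helps the iron core to form (gene 2512, chromosome 19, 48965309 to 48966879). It stood at 1467 and 1406 CPM in controls and at 1590, 1674 and 3540 CPM in sorted libraries 1, 2 and 3. Sorted library 3 was far above the rest, and sorted libraries 1 and 2 were just above the controls. The log2 fold change of 0.66 ± 0.41 (SE) had an adjusted p of 0.373 by edgeR, and was 0.18 ± 0.08 (SE, adjusted p = 0.0993) without sorted library 3. The direction depended on the scale. On the authors' TPM, which is per transcript length, FTL was 2461 and 2608 in controls against 1909, 1925 and 1909 in sorted libraries, so that every sorted library was below both controls. The same held on TPM for 63.2% of tested genes, and the reverse for 4.1%. On log2(TPM + 1) FTL stood at -0.40 and the median of all tested genes at -0.64.

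The makeup of ferritin messengers was compared inside each library, where scaling between libraries has no part. FTH1 TPM was 0.377 and 0.379 of FTL TPM in controls and 0.164, 0.147 and 0.0928 of it in sorted libraries. The 2 controls were nearly alike and each sorted library was under 0.2. The mean log2 ratio was -1.40 in controls and -2.93 in sorted cells, a difference of -1.53, or -1.28 without sorted library 3. An exact permutation test, two-sided on the difference of means, gave p = 0.1 (n = 2 and 3), which is the smallest that 2 against 3 libraries allow. Adjusted after Benjamini and Hochberg over the 3 ratios tested, the permutation p was 0.3, and this was the one ratio of the 3 in which the groups did not overlap.

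**Figure D1:**
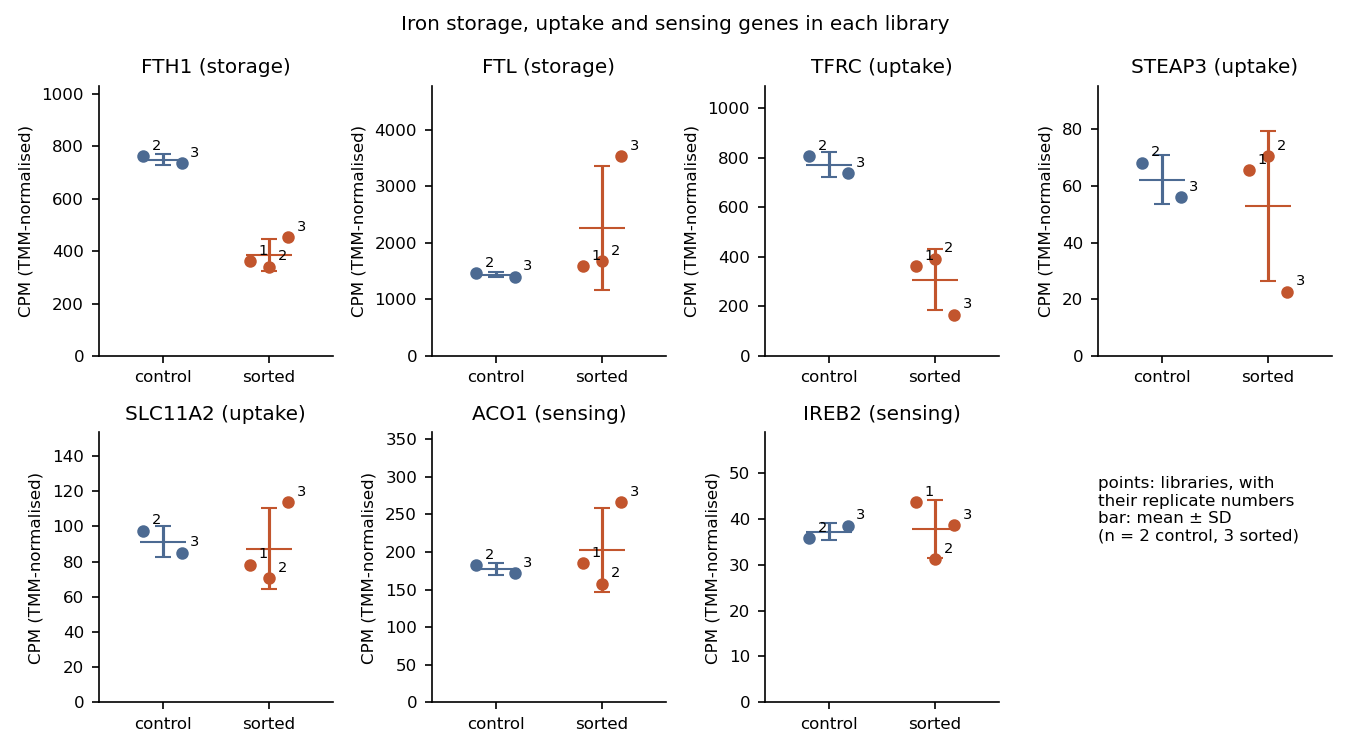
TMM-normalised CPM (y axis, from 0) of the 7 tested iron genes in 2 control and 3 sorted libraries (points, with replicate numbers), with mean and SD as bars. FTH1 and TFRC are lower in all sorted libraries, while FTL is high in sorted library 3 (3540 CPM) and STEAP3 low in it (22.7 CPM). On this scale 27.7% of all tested genes had every sorted library below both controls.

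TFRC encodes transferrin receptor 1, the main door for iron in dividing cells (gene 7037, chromosome 3, 196049284 to 196082090). Its level was 807 and 738 CPM in controls and 363, 392 and 166 CPM in sorted libraries 1, 2 and 3. All sorted libraries were below both controls, a pattern shared by 27.7% of all tested genes. Sorted library 3 was lowest, at 0.441 of the mean of sorted libraries 1 and 2. The means were 773 ± 49.1 (SD, n = 2) and 307 ± 123 CPM (SD, n = 3), 2.51-fold lower. By edgeR TFRC stood at -1.33 ± 0.38 (log2, SE, adjusted p = 0.0976), and at -1.03 ± 0.09 (SE, adjusted p = 2.22e-04) when sorted library 3 was left out. DESeq2 gave an adjusted p of 0.00757 and limma-voom one of 0.0664. In bulk RNA, fewer cells with the messenger and less of it per cell cannot be told apart.

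In sorted libraries 1 and 2, FTH1 and TFRC were lower by nearly the same factor, 2.14-fold and 2.04-fold. The ratio of FTH1 to TFRC in TPM was 3.93 and 4.12 in controls against 4.12, 3.56 and 11.3 in sorted libraries 1, 2 and 3. Sorted library 3 was far above the rest, sorted library 2 was just below both controls, and the groups overlapped (exact permutation test, two-sided, p = 0.9, n = 2 and 3). The mean log2 ratio was 0.45 higher in sorted cells with that library and differed by -0.07 without it.

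STEAP3, the endosomal reductase that turns ferric into ferrous iron after uptake (gene 55240, chromosome 2, 119223834 to 119265652), had 68.3 and 56.1 CPM in controls. Sorted libraries 1, 2 and 3 had 65.6, 70.6 and 22.7 CPM. Sorted libraries 1 and 2 lay within or just above the control values, and sorted library 3 was at 0.333 of their mean. The log2 fold change was -0.23 ± 0.47 (SE, adjusted p = 0.813 by edgeR) with that library and 0.13 ± 0.13 (SE, adjusted p = 0.476) without it. An antisense gene, STEAP3-AS1, overlaps STEAP3 and had 5 to 20 counts per library.

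SLC11A2 encodes DMT1, which carries ferrous iron out of the endosome (gene 4891, chromosome 12, 50952263 to 51028886). It had 97.6 and 85.1 CPM in controls and 78.2, 70.4 and 114 CPM in sorted libraries 1, 2 and 3. Sorted libraries 1 and 2 were under both controls and sorted library 3 was over both. The log2 fold change of -0.06 ± 0.25 (SE, adjusted p = 0.906 by edgeR) became -0.30 ± 0.12 (SE, adjusted p = 0.0889) without sorted library 3.

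SLC40A1 encodes ferroportin, the iron exporter (gene 30061, chromosome 2, 189560590 to 189580786). It had 0 and 8 counts in controls against 0, 7 and 0 in sorted cells. With 0 counts seen, up to 3 are allowed for, or 0.0822 to 0.227 CPM depending on the library. Ferroportin was near the detection limit in both groups and no fold is given.

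ACO1 encodes iron regulatory protein 1, which is the cytosolic aconitase when it holds its iron-sulphur cluster (gene 48, chromosome 9, 32384643 to 32454769). Levels were 183 and 172 CPM in controls and 185, 158 and 266 CPM in sorted libraries 1, 2 and 3. The groups overlapped, with sorted library 3 the highest of all. The log2 fold change was 0.19 ± 0.26 (SE, adjusted p = 0.701 by edgeR), and -0.05 ± 0.11 (SE) without sorted library 3.

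IREB2 encodes iron regulatory protein 2, which is degraded when iron is plentiful (gene 3658, chromosome 15, 78437431 to 78501453). It had 35.8 and 38.5 CPM in controls and 43.5, 31.2 and 38.6 CPM in sorted libraries 1, 2 and 3, on both sides of the controls. Its log2 fold change was 0.02 ± 0.21 (SE, adjusted p = 0.964 by edgeR), the smallest in size of the 7. The ratio of IREB2 to ACO1 in TPM was 0.188 and 0.222 in controls against 0.274, 0.204 and 0.172 in sorted libraries (exact permutation test, two-sided, p = 0.9, n = 2 and 3).

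**Figure D2:**
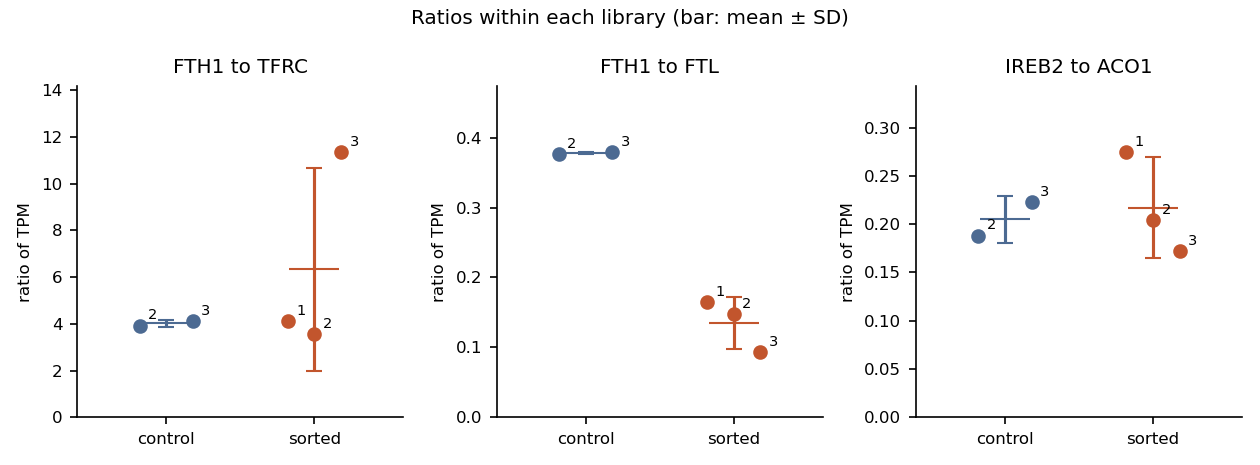
Ratio of TPM within each library (y axis, from 0) for 3 gene pairs, points with replicate numbers, bars mean and SD (n = 2 control, 3 sorted). FTH1 to FTL is 0.377 and 0.379 in controls and at most 0.164 in sorted libraries, while FTH1 to TFRC is 3.93 and 4.12 in controls against 4.12, 3.56 and 11.3 in sorted libraries 1, 2 and 3.

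Levels between genes were ordered by TPM. FTL was highest in every library, followed by FTH1, at 958 ± 43.3 TPM in controls (SD, n = 2) and 258 ± 71.7 in sorted cells (SD, n = 3). In controls the order went on with TFRC (238), ACO1 (45.8), SLC11A2 (35.8), STEAP3 (23.2), IREB2 (9.40) and SLC40A1 (0.0529), and no neighbours overlapped. Sorted libraries 1 and 2 kept that order. In sorted library 3 ACO1 (16.8 TPM) passed TFRC (15.6 TPM), and IREB2 (2.89 TPM) passed STEAP3 (2.48 TPM). In the sorted group each pair of neighbours from TFRC (57.1 ± 36.0) through ACO1 (22.6 ± 5.16), SLC11A2 (17.1 ± 3.12) and STEAP3 (12.1 ± 8.39) to IREB2 (5.06 ± 2.20) had overlapping TPM values (mean ± SD, n = 3). The 7SL share of sorted library 3 is given above, and its part in these values was not tested.

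On TPM all 7 tested genes were lower in every sorted library than in both controls, a pattern that 63.2% of all tested genes shared. When libraries were scaled by their totals only, all tested genes had a median of -0.40, and ACO1 and IREB2 had log2 fold changes of -0.25 and -0.38 in place of positive ones. FTH1 and TFRC kept their direction on all scales, at -1.39 and -1.65 with library size alone and at -1.93 and -2.35 on log2(TPM + 1). Both stood further below 0 than the median of all genes in each of these settings.

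**Figure D3:**
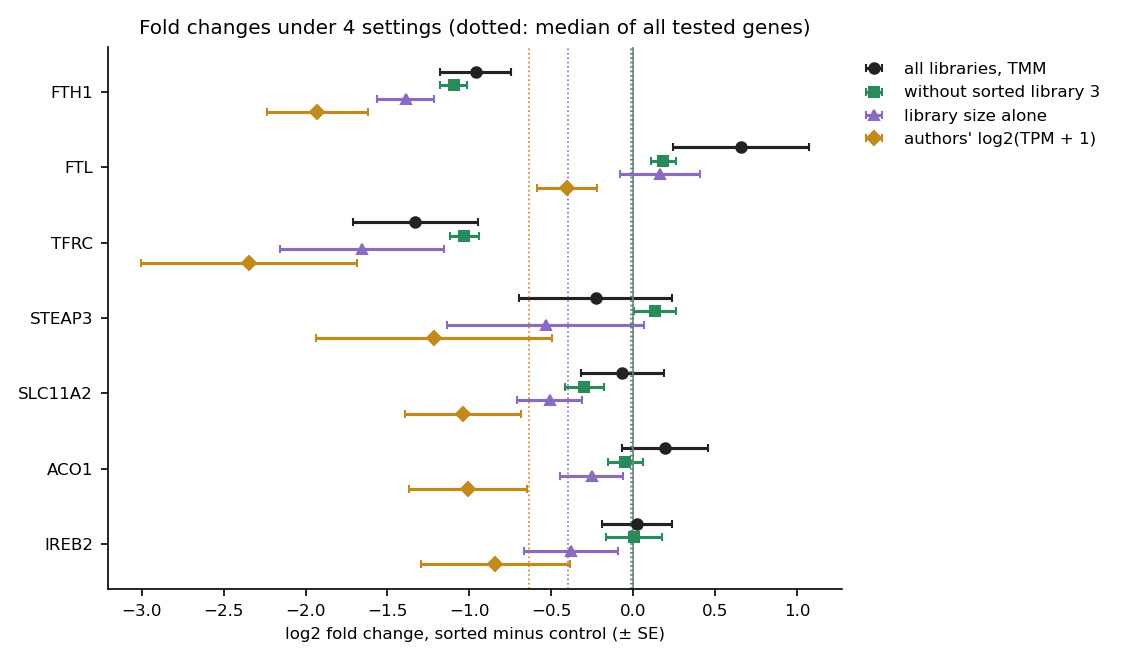
Log2 fold change, sorted minus control (x axis, with SE), of the 7 tested iron genes under 4 settings, with dotted lines at the median of all tested genes in each. FTH1 and TFRC lie left of every dotted line, at -0.96 and -1.33 with TMM, while FTL lies at 0.66 with TMM and at -0.40 on log2(TPM + 1).

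Beyond these 8, 106 other iron genes were described by role, of which 91 were tested. By edgeR 1 rose and 4 fell, against 2.2% and 2.4% of all tested genes. The lists were chosen with earlier results of these data known, so the counts are a description. The median log2 fold change of the other iron genes was -0.02. When sorted library 3 was left out, 13 passed as higher and 21 as lower, when 15.4% and 16.8% of all tested genes did. The single gain was NEO1 and the losses were STEAP1, HMOX1, NQO1 and SLC7A11. The counts by role given next stand against the same all-gene shares as those of the 8 genes, namely 2.2% higher and 2.4% lower for edgeR, 8.76% and 8.16% for DESeq2, 3.78% and 5.35% for limma-voom, and 12.2% and 13.6% without adjustment.

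Among genes of uptake and reduction, with TFRC, SLC11A2 and STEAP3 counted in, 9 of 13 were tested, and 0 rose and 1 fell by edgeR. Without adjustment these numbers were 2 and 3, with DESeq2 1 and 3, and with limma-voom 1 and 1. The loss was STEAP1, of the same reductase family as STEAP3, with 80.4 and 76.2 CPM in controls and 39.7, 41.1 and 36.9 CPM in sorted libraries. All 3 sorted libraries lay close together at about the level of 40, and the log2 fold change was -0.995 ± 0.166 (SE, adjusted p = 0.0329).

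Among genes of export and its control, 6 of 12 were tested, and 1 rose and 0 fell by edgeR. Without adjustment it was 2 and 1, with DESeq2 2 and 1, and with limma-voom 2 and 0. The gain was NEO1, the neogenin receptor that binds hemojuvelin and acts in control of hepcidin in the liver. It had 7.95 and 9.89 CPM in controls and 26.2, 21.2 and 19.7 CPM in sorted libraries (log2 fold change 1.33 ± 0.25, SE, adjusted p = 0.0430). That call depended on the scaling. On TPM the groups overlapped, with 1.57 and 2.16 in controls against 4.33, 2.87 and 1.252, and the adjusted p for NEO1 was 0.560 on log2(TPM + 1) by limma, 0.222 on log2(FPKM + 1) and 0.180 with edgeR and library size alone. HAMP, which encodes hepcidin, had 0 counts in all 5 libraries, as did HEPH, HJV and TMPRSS6.

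Of 7 sensing genes, ACO1 and IREB2 among them and all tested, edgeR called 0 and the unadjusted test, DESeq2 and limma-voom also called 0 in either direction. SKP1, a subunit of the ubiquitin ligase that removes iron regulatory protein 2, was the most abundant in CPM and stood at 0.11 on the log2 scale (adjusted p = 0.750). Of 6 genes of storage and ferritin turnover, with both ferritin chains, 5 were tested and 0 called by edgeR. The unadjusted test gave 0 higher and 2 lower, and DESeq2 and limma-voom 0 and 1, that 1 being FTH1. NCOA4, the receptor that delivers ferritin to the lysosome, stood at 264 and 250.2 CPM in controls and 254, 233 and 319 CPM in sorted libraries, with an adjusted p of 0.885.

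Other messengers with a described iron-responsive element gave 0 calls by edgeR among 4 tested, against 0 higher and 3 lower by DESeq2 and by the unadjusted test, and 0 and 2 by limma-voom. Their median was -1.08. CDC42BPA, a kinase gene and the most abundant of them, had 161 and 182 CPM in controls and 94.9, 66.4 and 55.3 CPM in sorted libraries (log2 fold change -1.25 ± 0.26, SE, adjusted p = 0.0550). CDC14A, whose hairpin is printed above, stood at -1.46 (log2, adjusted p = 0.0668) and EPAS1, which encodes HIF-2 alpha, at -0.92 (adjusted p = 0.0967). These 2 were named after their values were seen. Each of these 3 genes passed the threshold as lower without sorted library 3, when 16.8% of all tested genes were lower and 15.4% higher.

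Mitochondrial iron import and iron-sulphur cluster genes, 30 tested of 30, gave 0 calls by edgeR, while the unadjusted test, DESeq2 and limma-voom each gave 1 higher and 0 lower. Their median was 0.03, and HSPA9, the abundant mitochondrial chaperone that serves cluster transfer, stood at -0.03. Without sorted library 3, 3 were higher and 6 lower, when 15.4% and 16.8% of all tested genes were. Haem synthesis, 11 tested of 12, also gave 0 calls, also 0 by limma-voom, while DESeq2 and the unadjusted test each called 1 higher and 0 lower. UROD, an enzyme of that pathway, stood at 0.07.

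Genes shared with the NRF2 pathway, a list chosen with earlier results of these data known, held the remaining losses. HMOX1, the haem oxygenase that frees iron from haem, had 118 and 133 CPM in controls and 48.0, 44.3 and 29.04 CPM in sorted libraries (log2 fold change -1.63 ± 0.25, SE, adjusted p = 0.0298). NQO1, a quinone reductase, fell by 1.69 on the log2 scale (adjusted p = 0.0158), and SLC7A11, the cystine importer, fell by 3.09 (adjusted p = 0.0147). Of 10 tested NRF2 targets, FTH1 and FTL among them, 0 rose and 3 fell by edgeR, HMOX1, NQO1 and SLC7A11. With library size alone HMOX1 missed the threshold (adjusted p = 0.0594 by edgeR), as did STEAP1 (0.0579). DESeq2 and limma-voom each called 0 and 4, and the unadjusted test 2 and 4. Haem breakdown and transport had 1 loss, HMOX1, and 0 gains among 9 tested. DESeq2 and limma-voom called 0 and 1, and the unadjusted test 2 higher and 1 lower. Ferroptosis control had 1 loss, SLC7A11, and 0 gains among 16. DESeq2 called 1 in each direction, limma-voom 0 higher and 1 lower, and the unadjusted test 1 higher and 5 lower.

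**Figure D4:**
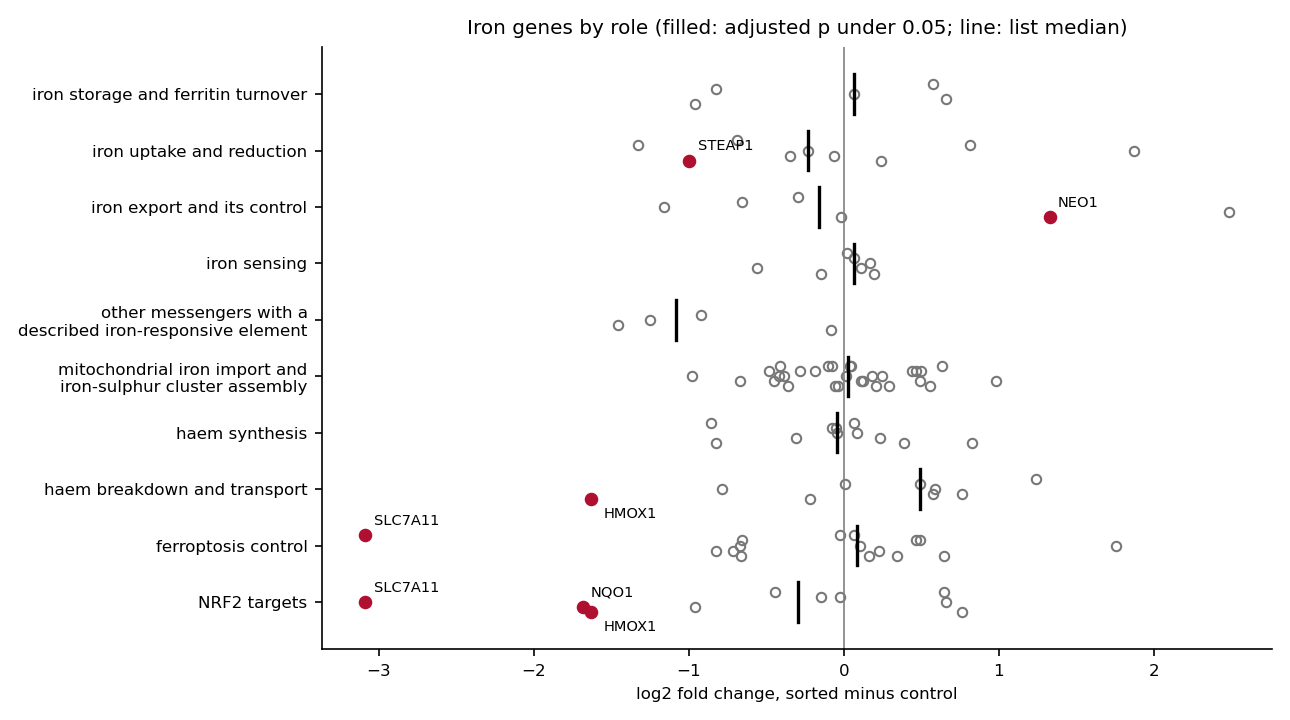
Log2 fold change, sorted minus control (x axis), of each tested gene of 10 iron lists (points, filled where the adjusted p by edgeR is under 0.05), with the list median as a line. NEO1 is the only filled point to the right, and SLC7A11 lies furthest left at -3.09.

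The calls among other iron genes depended on which libraries were used. By edgeR, NEO1, STEAP1, HMOX1, NQO1 and SLC7A11 also passed without sorted library 3. In that fit 15.4% of all tested genes were higher and 16.8% lower. Without sorted library 1 or sorted library 2, edgeR called 0 of the other iron genes in either direction. At an unadjusted p under 0.05, 7 and 10 were higher and 11 and 9 lower. In these fits DESeq2 called 6 and 6 higher and 7 and 6 lower, and limma-voom 0 higher and 4 and 2 lower. Over all genes edgeR called 0 without sorted library 1, and 12 higher and 7 lower without sorted library 2. The unadjusted test gave 1632 and 1810 higher and 2109 and 1926 lower. DESeq2 called 6.15% and 6.79% of all genes higher and 6.19% and 5.51% lower. Limma-voom called 0.875% and 0.796% higher and 1.41% and 0.437% lower. Where a control was left out, the 1 control left was assumed to vary like the sorted group, and only fold changes are read. NEO1 kept its positive sign without any 1 library (1.17 to 1.48), and STEAP1, HMOX1, NQO1 and SLC7A11 their negative ones.

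The genes whose pattern over the 5 libraries was most like FTH1 or TFRC were found among 9924 protein-coding genes with a mean of at least 5 CPM, by the root mean square distance of centred log2 CPM. For FTH1 they were MOSPD1, KIN, ARMC9, STAU2 and PINX1, at distances of 0.0351 to 0.0614. For TFRC they were C12orf4, FAM217B, LRRC8C, LCLAT1 and PTPRE, at 0.0432 to 0.0954. The nearest to FTH1, MOSPD1, had 51.3 and 48.4 CPM in controls and 25.3, 22.6 and 29.9 CPM in sorted libraries. C12orf4 had 64.6 and 63.6 CPM in controls and 31.3, 34.0 and 14.1 CPM in sorted libraries. Like TFRC, it was lowest in sorted library 3. All 10 share these 5 libraries, and likeness over so few is a description.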

How the data were processed

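RNA was sequenced from 5 libraries of U87 MG with a stranded total RNA kit, per the labels' protocols. The submitters' processing notes name StringTie and GRCh38. Aligner and strand setting: not given in the sources used here. Deposited by the authors were, per the file headers, an estimated count per gene in whole numbers, and the FPKM and TPM that they had computed. Of 46427 gene identifiers, 96.3% matched the RefSeq table of GRCh38.p14. No 2 libraries were the same library sequenced again (chi-square per degree of freedom at least 19.9775 over genes). That value cannot tell libraries of separate cultures from repeat libraries of the same culture.

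The main test on counts was that of edgeR 4.0.16 (R 4.3.3): filterByExpr (16304 genes kept), TMM factors, robust quasi-likelihood F test, group as the only term. P-values were adjusted over all tested genes after Benjamini and Hochberg (threshold 0.05). The SE is the absolute fold change over the square root of F. Alternatives included DESeq2 1.42.0 and limma 3.58.1 (voom on counts, trend on log2 of TPM or FPKM plus a pseudocount of 1 or 0.1). Tests were checked on simulated data. Hairpin sequences came from GENCODE 29. Of the 8 genes, 7 had an entry in the RefSeq sequence table, and FTH1 did not. From each further list, the text names up to 3 called genes, lowest adjusted p first, or else its most abundant tested gene. The members and lists were chosen with earlier results of these data known.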

Additional observations from a re-analysis of the deposited data

How the results depend on the processing

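Of the 8 iron genes, those past the threshold as lower numbered 0 with RLE or upper quartile factors, a filter of 1 CPM in 2 libraries, protein-coding genes alone or a replicate block. FTH1 was 1 such gene with library size alone (-1.39), no low-count filter (-0.99), limma-voom (-0.97), log2(TPM + 1) (-1.93), log2(TPM + 0.1) (-1.93) and log2(FPKM + 1) (-1.39), and FTH1 (-0.94) and TFRC (-1.32) were 2 with DESeq2. Leaving out 1 library gave 0 to 2, with log2 fold changes of -1.10 to -0.87 for FTH1, -1.54 to -1.03 for TFRC, 0.18 to 0.85 for FTL, -0.298 to 0.077 for SLC11A2, -0.048 to 0.354 for ACO1, -0.10 to 0.15 for IREB2 and -0.49 to 0.13 for STEAP3. With protein-coding genes alone and without sorted replicate 3, a setting chosen after the data had been seen, the 2 were FTH1 (-1.10) and TFRC (-1.03), ACO1 stood at -0.05 and STEAP3 at 0.13, 2448 genes were higher and 2602 lower in all, and 13 and 23 of the other iron genes.

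Signs turned for genes that had not passed with TMM and all libraries. FTL was -0.40 and -0.40 on log2(TPM + 1) and log2(TPM + 0.1), and SLC11A2 was 0.001 with upper quartile factors. In the order library size alone, log2(TPM + 1), log2(TPM + 0.1) and log2(FPKM + 1), the values were -0.25, -1.01, -1.04 and -0.48 for ACO1, -0.38, -0.84, -0.97 and -0.38 for IREB2, -0.36, -0.89, -0.90 and -0.36 for NCOA4, -0.29, -0.86, -0.90 and -0.34 for SKP1 and -0.35, -0.90, -0.90 and -0.36 for UROD. IREB2 was also -0.005 with no filter, -0.001 with limma-voom and -0.10 with a replicate block, and HSPA9 was 0.033 with upper quartile factors and 0.041 with the block. Without 1 library HSPA9 ran from -0.187 to 0.069 and NCOA4 from -0.075 to 0.167. The cause was not tested.

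Over all genes, 359 higher and 392 lower became 113 higher with library size alone, 1429 and 1331 with DESeq2, 617 and 873 with limma-voom, 98 and 1508 on log2(TPM + 1), 60 higher on log2(TPM + 0.1), and 220 and 1061 on log2(FPKM + 1). Leaving out 1 library gave 0 to 2477 higher and 0 to 2695 lower. The 1 higher and 4 lower of the other iron genes became 0 higher with library size alone, 2 higher with no filter, 6 and 9 with DESeq2, 4 higher with limma-voom, 0 and 8 on log2(TPM + 1), 0 and 2 on log2(TPM + 0.1) and 0 and 10 on log2(FPKM + 1), and 0 to 13 and 0 to 21 without 1 library.

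Replicate numbers 2 and 3 are shared between the groups. Deviations of same-numbered libraries from their group means correlated at 0.046 and 0.062. With 2 controls, one deviates from their mean exactly as the other does with the sign turned. These values therefore cannot decide whether same-numbered libraries were paired. With the replicate block 192 genes were higher and 219 lower. Sorted library 1 has no same-numbered control, so in that fit it does not inform the group difference. Of the 5 other iron genes called with TMM, NEO1 (adjusted p = 0.129) and STEAP1 (0.118) did not pass with the block. On log2(TPM + 0.1) NEO1 (0.619), STEAP1 (0.0697) and HMOX1 (0.0640) did not pass. The 3 ratios moved by less than the spread between replicates under FPKM and CPM and without any 1 library. Signs still turned for 2 of them. The log2 difference of FTH1 to TFRC went from 0.45 to -0.072 without sorted library 3, which is itself part of that spread (0.744). IREB2 to ACO1 went from 0.058 to -0.15 on CPM, -0.063 without control 2 and -0.125 without sorted library 1. Depth limits SLC40A1 alone among the 8.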
